A study of Mus musculus with 3 samples.

Results

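Translation initiation and elongation factor genes were taken as the protein-coding genes of the mouse RefSeq annotation with a symbol of Eif or Eef followed by a digit. The rule is on symbols alone and uses no measured value, but the family was chosen with earlier results of these data known. It gave 71 of 21896 protein-coding genes with a position, 56 with Eif and 15 with Eef symbols. The study sequenced RNA crosslinked to AGO2, an Argonaute protein, in the mouse embryonal carcinoma line P19 (HITS-CLIP, antibody clone 2D4). Its 3 libraries, CLIP_AGO2_1 to CLIP_AGO2_3, form 1 group, and the labels name no treatment, control, input or second genotype. The files hold 4 peak lists for the series as a whole, from CIMS, Piranha, Pyicoclip and PIPE-CLIP, so neither the depth nor the spread of the libraries is known and no test between groups exists.

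AGO2 loads a microRNA and pairs its seed, the bases near the 5′ end of the small RNA, with messenger RNAs, which lowers their translation and stability. Translation initiation begins when eIF4E binds the mRNA cap, eIF4G bridges to eIF3 on the small ribosomal subunit, and the helicase eIF4A, helped by eIF4B and eIF4H, opens structure ahead of the scanning ribosome. eIF2 brings the initiator tRNA, eEF1A then delivers each further aminoacyl-tRNA, and eEF2 moves the ribosome along by a codon. The mRNAs of several of these factors are abundant in growing cells. Several of their genes carry small nucleolar RNA (snoRNA) genes in their introns, so peaks inside small RNA genes were kept apart.

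In all, 68 of 6911 peaks had their midpoint in a translation factor gene span, on either strand. Of these, 7 lay in small RNA genes and 61 outside them, and the 61 are described unless stated otherwise. They comprised 38 PIPE-CLIP clusters, 20 Pyicoclip peaks and 3 Piranha peaks, and 0 of the 169 CIMS peaks, a count that allows at most 1.78% of that list. Merged over the lists with strand ignored, they formed 44 loci in 15 genes. Of these loci, 31 came from 1 list, 11 from 2 lists and 2 from 3 lists. The distribution over all loci in protein-coding spans was much the same, with 72.6% in 1 list against 70.5% here.

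Only 1 of the 61 peaks lay wholly inside a sequence window given in the RefSeq promoter table (GRCm38.p6, the coordinates of mm10), and its end is shown here because the annotated starts of the gene surround it. It is the 75-nt PIPE-CLIP cluster of Eif5a, the factor that helps the ribosome at difficult peptide bonds, at chr11:69921163-69921237 on the minus strand, with a score of 11. RefSeq gives 6 start sites for this gene, and the cluster lay 38 nt after 1 of them and 78 nt before another. The 30 bases at the downstream edge, chr11:69921157-69921186, read as follows on the minus strand, 5′ to 3′, with the last 24 bases of the cluster first. The capitals mark the first 2 bases beyond the cluster, GT, the letters with which most introns begin.
Eif5a cluster edge: gtcaagtcagtgcgttcgcgcgagGTgaga
The hexamer GTGAGA that starts there occurs on either strand in 15.5% of all 32851 promoter windows of 300 nt. That share is for any place in a window and gives no background for GT at this edge. No exon table was used, so a splice site at the edge was not tested. Among 55 distinct seeds (bases 2 to 8) of 67 mature microRNAs from genes with peaks in at least 2 lists, 0 had a complementary 7-mer in the cluster, which says only that these letters are not in this window.

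Of the 71 spans, 4 contain an annotated microRNA gene, and none of the 4 held a peak midpoint or overlapped a peak of its host outside small RNA genes. Their mature sequences are printed to show which small RNAs the hosts carry, with the seed in capitals and credited to RefSeq (GRCm38.p6).
mmu-miR-3084-5p, in Eif3a: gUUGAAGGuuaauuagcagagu
mmu-miR-3084-3p, in Eif3a: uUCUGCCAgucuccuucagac
mmu-miR-1956, in Eif4e: aGUCCAGGgcugagucagcgga
mmu-miR-6399, in Eif4g3: uUGCAAUGaugguauucugagg
mmu-miR-7038-5p, in Eif3b: uGUAGAAGgaagggcugcugug
mmu-miR-7038-3p, in Eif3b: cACUGCUCcugccuucuuacag
The 6 seeds all differ. Eif3a carries Mir3084-2 at chr19:60774329-60774397, and its nearest peak there was 641 nt away. The snoRNA gene Snora19 is annotated inside the same interval, at chr19:60774330-60774385, and held no peak either. Eif4e, Eif4g3 and Eif3b had no peak anywhere in their spans. Over the whole annotation, 52 of 1228 microRNA genes held a peak, or 4.23%.

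A peak of any list lay in 15 of the 71 translation factor genes, 21.1% (95% Wilson interval 13.2 to 32.0), while 9.66% of all protein-coding genes had one. The family was chosen with earlier results of these data known, and the intervals do not cover that choice. Peaks of at least 2 lists lay in 7 members, 9.86% (4.86 to 18.98), beside 3.88% of all protein-coding genes. By list, PIPE-CLIP had a cluster in 13 members (18.3%) against a background of 7.07%, Pyicoclip in 9 (12.7%) against 4.43%, Piranha in 3 (4.23%) against 2.8%, and CIMS in 0 against 0.269%. Counting peaks in small RNA genes as well left the members at 15, beside 9.77%. With PIPE-CLIP set aside, 9 members held a peak, 12.7% beside 4.48%. The members had a median span of 15330 nt and all protein-coding genes one of 17149 nt. Transcript levels were not measured here, so a larger amount of an mRNA and stronger binding of it cannot be told apart, and the part of mRNA level in these counts was not tested. Cytosolic ribosomal protein genes, another set of abundant mRNAs, had a peak in 11 of 81 (13.6%, 7.75 to 22.7), and Hnrnp and Srsf genes in 7 of 32 (21.9%, 11.0 to 38.7). Both intervals overlap that of the translation factors, but the sets are not alike. At least 2 lists had peaks in 4.94% of the ribosomal protein genes and in 0 of the 32 Hnrnp and Srsf genes. All peaks in the Hnrnp and Srsf genes were PIPE-CLIP clusters. The median spans of these sets were 3175 nt and 10992.5 nt.

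**Figure D1:**
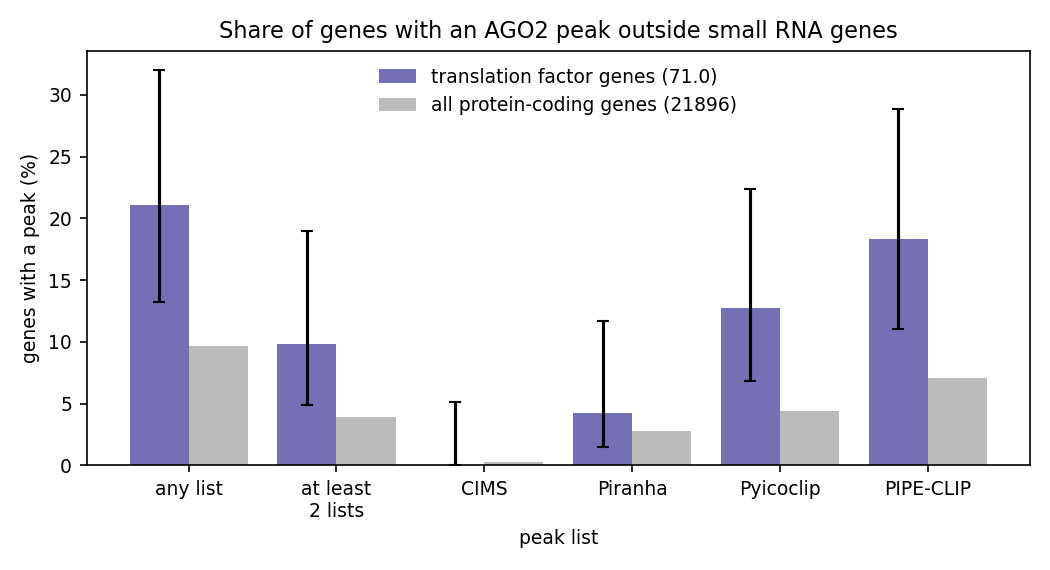
Percent of genes with an AGO2 peak outside small RNA genes (y axis) for each peak list (x axis), in the 71 translation factor genes (purple, bars of error are 95% Wilson intervals) and in all 21896 protein-coding genes (grey). The members reach 21.1% for any list and 18.3% for PIPE-CLIP, and 0 for CIMS.

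Among the initiation factors, the eIF3 scaffold held the most peaks. Eif3a encodes the largest eIF3 subunit and spans chr19:60761116-60790693 on the minus strand. It held 11 PIPE-CLIP clusters, 4 Pyicoclip peaks and 1 Piranha peak, merged into 11 loci, a number that 8 of the 2116 protein-coding genes with a peak exceeded. The highest-ranking site, 60766435 to 60766829, was the only Eif3a locus with 3 lists. There PIPE-CLIP scored 57 (percentile 98.3 of that list), Pyicoclip 28 (percentile 93.9) and Piranha 11 (percentile 34.7). The next PIPE-CLIP scores were 39 at 60768707 to 60768897, 28 at 60764037 to 60764168 and 23 at 60763119 to 60763267. The other PIPE-CLIP clusters of this gene scored between 11 and 20. The score is the authors' own value per peak, has no stated unit and starts at 10 in every list.

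Along Eif3a the loci were not spread evenly. Read in the direction of the gene, 9 of the 11 loci lay beyond 50% of the span, and 2 lay at 28.6% and 31.3%. The last locus, found by Pyicoclip with a score of 16 and by PIPE-CLIP with a score of 15, was centred about 118 nt before the 3′ end of the span. All 4 Pyicoclip peaks of Eif3a overlapped a PIPE-CLIP cluster, and those 4 pairs differed by at most 1 nt at their lower coordinate. At the upper coordinate 3 of the pairs differed by 0 to 3 nt, and the pair of the highest-ranking site by 102 nt.

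Other eIF3 subunits had fewer peaks than Eif3a. Eif3c and Eif3h held 2 each, the median for all protein-coding genes with a peak. In all, 3 of the 14 eIF3 genes had a peak, a class too small to be set apart from the background share of 9.66%. Eif3c held PIPE-CLIP clusters of 10 and 14, at 51.4% and 9.57% of its span. Eif3h held clusters of 12 and 11. In the other 11 of 14 eIF3 genes, Eif3b, Eif3d and Eif3e among them, no peak was found. Of the 20 peaks in eIF3 genes, 16 were thus in Eif3a.

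The eIF4 group, which prepares the capped mRNA, had peaks in several genes. Its classes are small, and none was tested against the share of 9.66% over all protein-coding genes. Both helper genes of the helicase had peaks. Eif4h had a site of 2 lists at chr5:134620110-134620213, where PIPE-CLIP scored 20 and Pyicoclip 10, with its midpoint 289 nt before the 3′ end of the span, and a second PIPE-CLIP cluster of 11 at 93.8% of the span. Eif4b had PIPE-CLIP clusters of 14 and 10, at 63.7% and 93.4%. Eif4g2 encodes a relative of eIF4G that lacks the eIF4E-binding part, and held 4 PIPE-CLIP clusters with scores of 11, 16, 12 and 11, whereas Eif4g1 and Eif4g3 had none. Eif4ebp2, a repressor that keeps eIF4E from eIF4G, had PIPE-CLIP clusters of 24 and 14, the first in percentile 87.4. No peak lay in the 4 genes of cap-binding eIF4E proteins or in the binding-protein genes Eif4ebp1, Eif4ebp3 and Eif4enif1.

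The helicase genes Eif4a1 and Eif4a2 show why small RNA genes were kept apart. In the span of Eif4a2, 4 of the 5 peaks lay in snoRNA genes. The snoRNA Snora81, of the class that guides pseudouridylation, had a Pyicoclip peak of 27 (percentile 93.4), a PIPE-CLIP cluster of 22 (percentile 84.1) and a Piranha peak of 11. Snord2 had a Pyicoclip peak of 12. Outside them Eif4a2 kept a lone Pyicoclip peak with a score of 11, at 86.0% of the span. In Eif4a1, the snoRNA gene LOC115487878 held a PIPE-CLIP cluster of 30 (percentile 93.0) and a Pyicoclip peak of 11. The remaining Eif4a1 peaks had low scores, namely 10 for Piranha and 10 for Pyicoclip at one site, 69670581 to 69670603, and 12 for a PIPE-CLIP cluster at 69670857 to 69670925. A PIPE-CLIP cluster of 12 in Eif4g2 also had its midpoint in a snoRNA gene, LOC115486847. In total 4 of the 16 snoRNA genes inside member spans held a peak, beside 1.57% of the 1340 annotated snoRNA genes. Those without included Snord37 of Eef2, Snora41 of Eef1b2, Snora28 of Eif5 and Snord66 of Eif4g1.

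**Figure D2:**
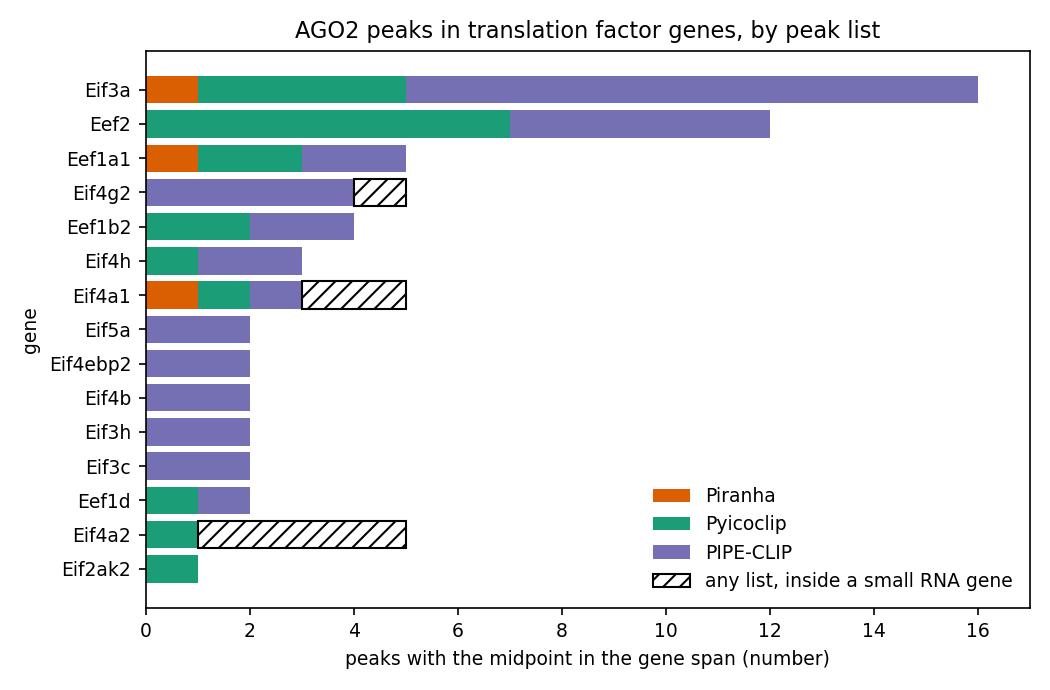
Number of peaks with the midpoint in each gene span (x axis) for the 15 translation factor genes with a peak (y axis), stacked by peak list, with hatched bars for peaks of any list inside small RNA genes. Eif3a has 16 and Eef2 12 peaks, and 4 of 5 in Eif4a2 are in snoRNA genes.

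Few peaks lay in the genes of factors that act at the start codon and on the initiator tRNA, classes too small to be set apart from the background share of 9.66%. None of the 5 genes of eIF1 and eIF1A (Eif1 and Eif1ax among them), the 4 of eIF2 subunits, the 5 of eIF2B, the exchange factor of eIF2, or Eif2a and Eif2d held one. Of the 4 eIF2 kinase genes, which slow initiation under stress, Eif2ak2 had a Pyicoclip peak of 12 at chr17:78859012-78859058. This peak was on the plus strand and the gene is on the minus strand, so the peak is antisense to the gene as annotated. It was the only stranded peak against the direction of its gene among the members with a known direction. Eif5a had a further PIPE-CLIP cluster of 11 at 69916936 to 69917020, 94.9% along the span. The span of Gps2, on the opposite strand, also covers this position, and the cluster was on the strand of Eif5a. Eif5, Eif5a2, Eif5b and Eif6 had none.

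Genes with Eef symbols held 23 of the 61 peaks, 12 of them in Eef2. A peak lay in 4 of these 15 genes, beside 11 of 56 genes with Eif symbols and 9.66% of all protein-coding genes. The sets are small and the difference between them was not tested. Eef2, whose product moves the ribosome and which spans only 5879 nt (chr10:81176631-81182509, plus strand), had 7 Pyicoclip and 5 PIPE-CLIP rows at 6 loci. Those 6 loci stretched from 25.9% to 95.9% of the span, and 4 of them were in both lists. The highest scores, 17 in Pyicoclip (percentile 80.5) and 19 in PIPE-CLIP (percentile 77.1), were at 81178069 to 81178239. Other Eef2 scores ran from 10 to 16, so this gene stood out by the number of its sites and not by their rank. At 81182228 to 81182310, near the 3′ end, Pyicoclip lists the same interval in 2 rows, with scores of 10 and 11. Eef2 had 1.02 loci per kb of span and Eef1a1 0.917, against a median of 0.0289 over all protein-coding genes with a peak, whose median span is 47984 nt. A single locus in a short span already exceeds that median, and genes of similar span were not compared. By number of loci, 84 of 2116 genes with a peak had at least as many as Eef2 and 329 as many as Eef1a1.

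The eEF1 genes followed in number. Eef1a1, the gene of the tRNA-delivering factor, spans 3272 nt on the minus strand of chromosome 9 and had a site of 3 lists at 78479622 to 78479745. PIPE-CLIP scored 22 there (percentile 84.1), Pyicoclip 18 (percentile 83.1) and Piranha 12 (percentile 51.2), at about 62.4% of the span. A Pyicoclip peak of 12 and a PIPE-CLIP cluster of 10 lay elsewhere in the gene. Eef1b2, which helps to recharge eEF1A with GTP, had sites of both Pyicoclip and PIPE-CLIP at chr1:63178481-63178568, with scores of 10 and 12, and at chr1:63179515-63179654, with 13 and 11. Eef1d, another subunit of that exchange complex, had a PIPE-CLIP cluster of 13 and a Pyicoclip peak of 10 at separate places. Eef1a2, Eef1e1 and Eef1g had none. Nor had any of the 8 genes of eEF2 kinase and of the methyltransferases of elongation factors. That class is too small to be set apart from the background share of 9.66%. Eef1a1 has many processed copies in the genome, so reads could have been placed on either. Of the 14 pseudogenes with a symbol of this family, only Eef1a1-ps1 and Eef1a1-ps2 are named for it, and neither held a peak. Other copies were not examined, so the placing of reads on copies was not tested. Among the 14, only Eif3s6-ps1 held a peak, a PIPE-CLIP cluster of 11.

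**Figure D3:**
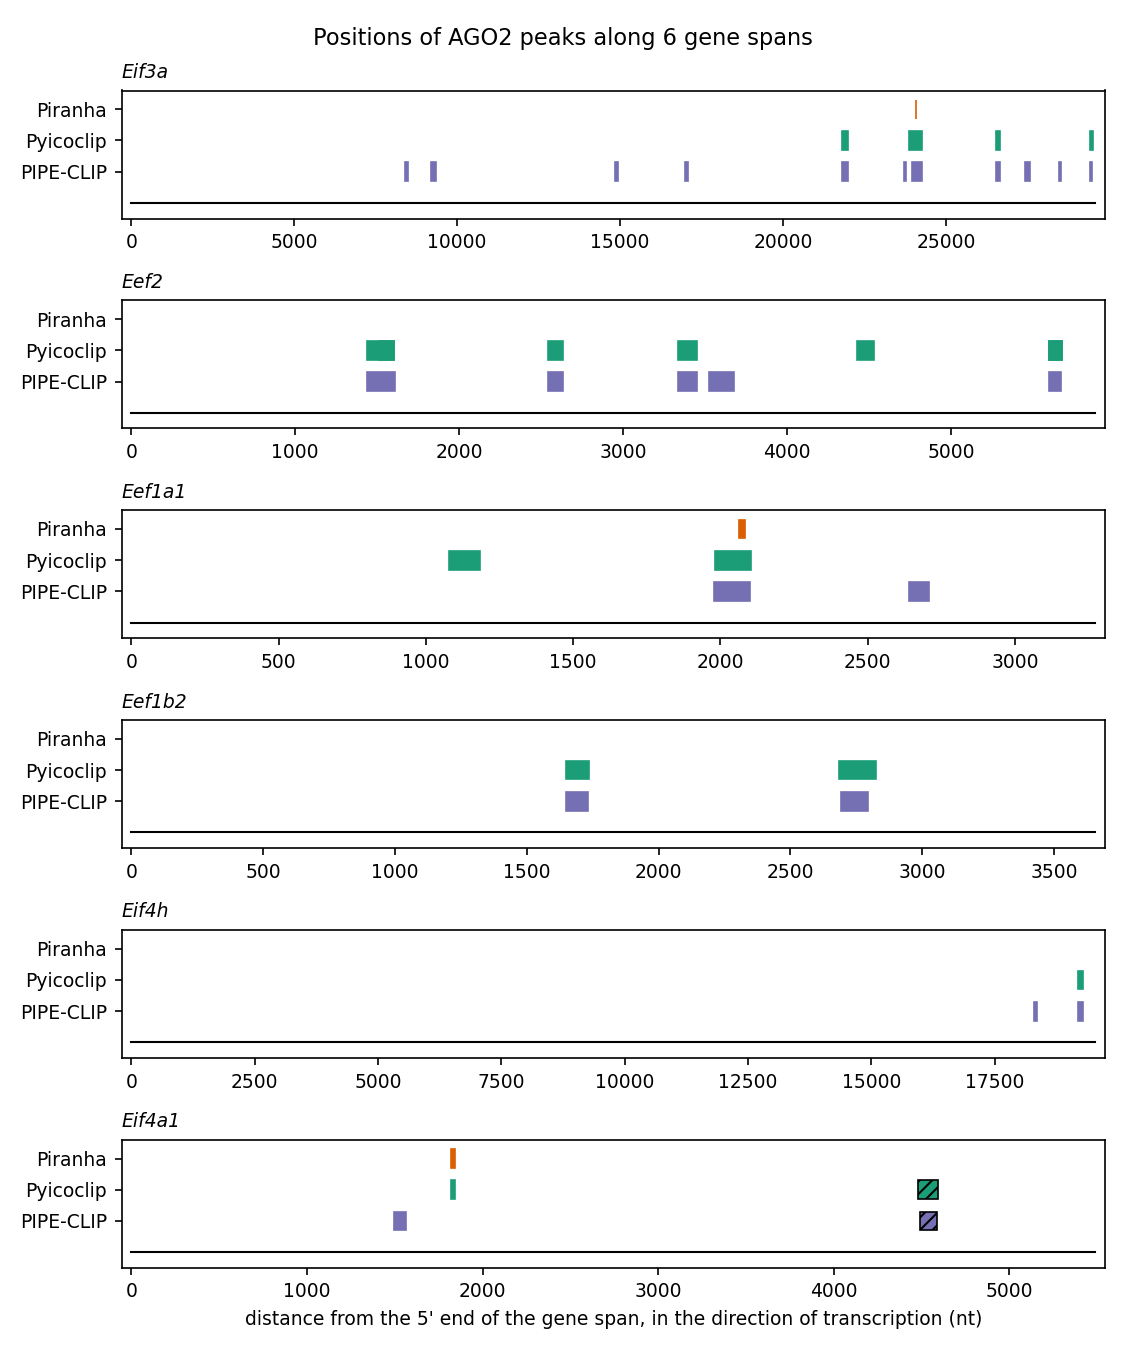
Positions of peaks along 6 gene spans, as distance in nt from the 5′ end of the span in the direction of transcription (x axis), with a row per peak list and the span as a black line. Hatched boxes lie in a small RNA gene, and the Eif3a boxes crowd toward the 3′ end while those of Eef2 reach from 25.9% to 95.9% of the span.

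Nearly all of the members' peaks lay on the strand of their gene, the Eif2ak2 peak being the exception. Gene direction was used for 55 of the 71 members, and not for Eif4g2, Eif3h and Eef1d among those with peaks. Of PIPE-CLIP clusters, 31 of 31 were on the strand of the gene (Wilson interval 89.0 to 100), beside 96.3% in other protein-coding genes (95.5 to 97.0). That share depends on the list, where 2835 of all 3257 clusters were on the minus strand. In minus-strand genes it was 22 of 22, beside 99.0% in other protein-coding genes. In plus-strand genes it was 9 of 9 (70.1 to 100), from 3 genes, beside 75.8% (70.2 to 80.5). Of Pyicoclip peaks, 17 of 18 were on the strand of the gene, 94.4% (74.2 to 99.0), beside 69.3% (66.2 to 72.2). For Piranha it was 3 of 3 beside 57.9%. The last 10% of the span, which includes the 3′ end, held 8 of 31 PIPE-CLIP clusters, 25.8% (13.7 to 43.2), beside 42.3% (40.3 to 44.4) in other protein-coding genes. In Pyicoclip it held 4 of 19, 21.1% (8.51 to 43.3), beside 35.0% (32.0 to 38.1). The Pyicoclip intervals overlap, as do those of PIPE-CLIP. The first 10% held 1 of 31 PIPE-CLIP clusters, that of Eif3c, or 3.23% (0.572 to 16.2), beside 8.44% in other protein-coding genes. It held 0 of 19 Pyicoclip peaks, a count that allows up to 15.8%, beside 10.6%. Neither value can be told from the share in other genes at these numbers.

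Most Pyicoclip peaks in these genes were wide, but many of the wide ones were in Eef2 and Eif3a. Of 20, 16 were over 60 nt, 80.0% (58.4 to 91.9), beside 46.1% (43.3 to 48.9) in other protein-coding genes, and the medians were 96.5 and 37.0 nt. Of the 16, 7 were in Eef2 and 4 in Eif3a, and the others were in Eef1a1, Eef1b2 and Eif4h. The exceptions at or below 60 nt were in Eif4a1, Eef1d, Eif2ak2 and Eif4a2, at 21, 35, 47 and 54 nt. Those genes had no other Pyicoclip peak outside small RNA genes, so the width was not a trait of every member. In PIPE-CLIP the median widths were close, 89.5 and 85.0 nt. Where a Pyicoclip peak and a PIPE-CLIP cluster overlapped, both edges agreed to within 5 nt in 9 of 14 pairs, 64.3%, as at Eef1a1 and Eif4h, beside 37.4% of 484 pairs in other protein-coding genes. A peak much narrower than its cluster cannot agree at both edges, so this share is not separate from the width. The 14 pairs include both rows of the repeated Eef2 interval. Pairs within a gene and peaks of the same reads are not independent, so intervals cover counting error only and are too narrow.

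The ranks of the scores were ordinary. The median percentile of the members' peaks was 47.9 in PIPE-CLIP and 40.2 in Pyicoclip, against 52.0 and 47.7 in other protein-coding genes. Of the 61 peaks, 30 reached the median score of their list and 10 had the lowest score of 10. The 4 peaks above percentile 90 were all in Eif3a.

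**Figure D4:**
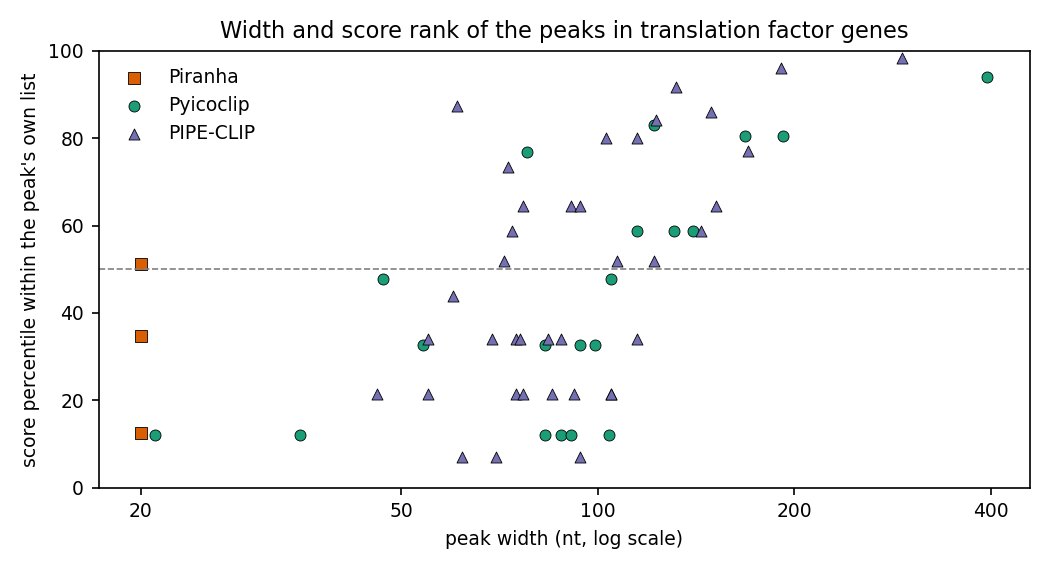
Width of each of the 61 peaks outside small RNA genes (x axis, nt, log scale) against the percentile of its score within its own list (y axis), with squares for Piranha, circles for Pyicoclip and triangles for PIPE-CLIP, and a dashed line at the middle rank. Most Pyicoclip peaks are over 60 nt, and the highest ranks belong to Eif3a.

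Over all protein-coding genes, the strand of the gene moved with the presence of PIPE-CLIP clusters. Of all protein-coding genes with a known direction, 12.2% of those on the minus strand had a PIPE-CLIP cluster and 1.96% of those on the plus strand. Among the members, 7 of 22 minus-strand genes (31.8%, 16.4 to 52.7) and 3 of 33 plus-strand genes (9.09%, 3.14 to 23.6) had one, the latter being Eef1b2, Eef2 and Eif4b. These intervals overlap and the difference was not tested. In Pyicoclip the background was even, 4.39% on the minus and 4.46% on the plus strand, and 5 of 22 minus-strand members (22.7%, 10.1 to 43.4) and 3 of 33 plus-strand members (9.09%, 3.14 to 23.6) held a peak. In Piranha it was 3 of 22 and 0 of 33, beside 2.67% and 2.85% of all protein-coding genes. The members' share was thus higher on the minus strand in these lists too, with overlapping intervals. The lists come from the same libraries, and each Piranha peak of the members overlapped a Pyicoclip peak, so they are not separate evidence. The 5 minus-strand members with a Pyicoclip peak include Eif2ak2, whose peak was on the plus strand. The cause of the lean was not tested. Eif3a, Eif4h, Eef1a1, Eif3c, Eif4ebp2, Eif4a1 and Eif5a are the minus-strand members with a PIPE-CLIP cluster. Members without a cluster include Eif4g1, Eif4e and Eif5 on the plus strand and Eif2s2 and Eif3d on the minus strand, and the part of strand in these absences was not tested. Clusters were also found by other callers to a different degree on each strand. On the plus strand 6 of 9 member clusters overlapped another list, 66.7% (35.4 to 87.9), beside 73.7% in other protein-coding genes. On the minus strand it was 6 of 29, 20.7% (9.85 to 38.4), beside 9.83%. Over both strands, 31.6% of the member clusters were shared (19.1 to 47.5), beside 16.6% (15.3 to 18.0), and a larger part of the member clusters was on the plus strand, since 76.3% were on the minus strand against 89.4%.

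**Figure D5:**
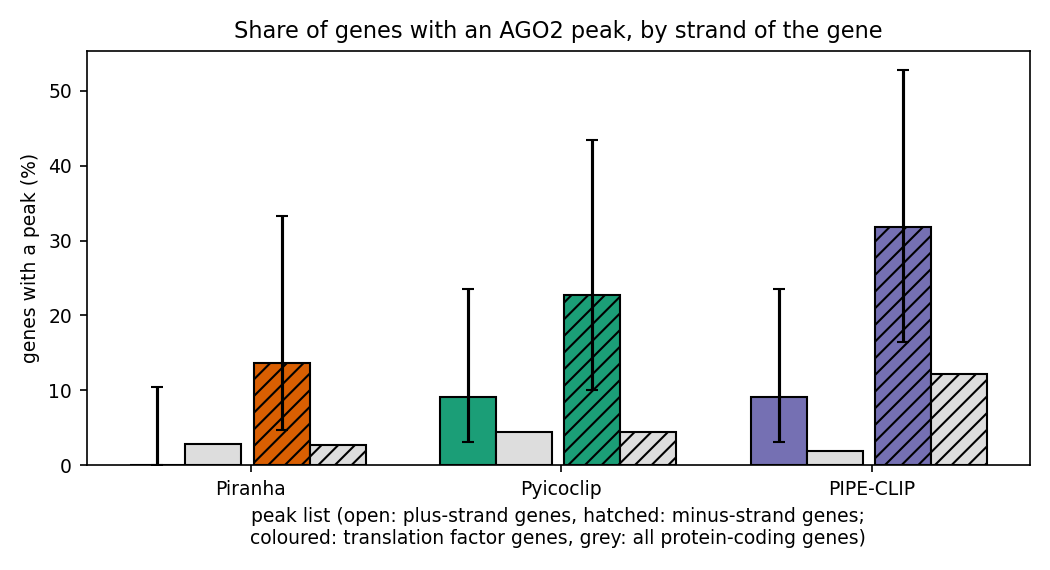
Percent of genes with an AGO2 peak outside small RNA genes (y axis) in 3 peak lists (x axis), for plus-strand genes (open) and minus-strand genes (hatched), in translation factor genes (coloured, with 95% Wilson intervals) and all protein-coding genes (grey). In PIPE-CLIP 12.2% of minus-strand and 1.96% of plus-strand protein-coding genes have a cluster, while the grey Pyicoclip bars are level.

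Among 48 other genes of the translation pathway, 9 had a peak, 18.8% beside the background of 9.66%. Of these 9, 7 had peaks of at least 2 lists, as had 3.88% of all protein-coding genes. The 48 genes were listed with earlier results of these data known, and the differences were not tested. Poly(A)-binding protein and its partners gave 3 of 8, namely Pabpc1 with 7 peaks at 6 loci, Larp1, which binds mRNAs of ribosomal proteins and translation factors, with 2, and Larp4b with 4. Gigyf1, a partner of the cap-binding repressor encoded by Eif4e2, had 22 peaks at 8 loci in all 4 lists, whereas Eif4e2 had none. Ddx3x, a scanning helicase, had 5 peaks in 3 lists. Pdcd4, an inhibitor of eIF4A, and Ddit3, a transcription factor of the stress response downstream of eIF2, had 2 and 3 peaks. Mknk2, a kinase of eIF4E, and Atf4, which acts in the same stress response as Ddit3, each had peaks of 1 list. Termination factors, diphthamide and hypusine enzymes, and mitochondrial translation factors had a peak in 0 of 15 genes. Of cell type markers, 3 of 11 for pluripotent cells held a peak, Lin28a, Lefty1 and Pou5f1, and 1 of 15 for neural, muscle and endoderm cells did. Over all protein-coding genes the share was 9.66%. The other pluripotent markers, Sox2, Nanog, Dnmt3b and Sall4 among them, had none. A peak is not a level of expression, so these small counts do not check the cell label and say little about the markers without a peak.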

How the data were processed

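RNA bound to AGO2 in P19 cells was sequenced in 3 libraries. The submitters' processing notes name cutadapt, Novoalign and the build mm10. How the peak callers were set and how the libraries were combined is not given in the sources used here. The authors deposited 1 peak list per caller, with a score per peak of at least 10 and no stated unit, which served only for ranks inside each list. Depth per library is unknown.

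Peaks were assigned to each RefSeq gene span (GRCm38.p6) that held their midpoint. Positions are counted from 1. Gene direction came from the RefSeq promoter table. Peaks with the midpoint in a small RNA gene were kept apart. Sharing required an overlap of 1 nt on the same strand, and Pyicoclip peaks with no strand matched either, among them 1 of Eif3a. Shares have 95% Wilson intervals, and a share of 0 has a limit of 3 counts of the total. With 1 group and no value per library, no test was made, and leaving out a library or a replicate was not possible. Assignment and overlap were tested on simulated data.

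Genes named are members with peaks in at least 2 lists, up to 25 others, hosts of small RNA peaks, a few members without peaks per class, and partners in at least 2 lists. Partners in 1 list were named after their values were seen. The members and lists were chosen with earlier results of these data known. Python 3.11.15, numpy 2.4.6, pandas 2.3.3, scipy 1.17.1 and matplotlib 3.10.9 were used.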

Additional observations from a re-analysis of the deposited data

How the results depend on the processing

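Of 59 values of 10 results under the alternatives, 51 stayed within 1.5 times a count or within the interval of a share, and 8 moved. Without PIPE-CLIP, 9 rather than 15 members had a peak, 3 rather than 7 had peaks of 2 lists, peaks fell to 23 and loci to 18, and 15.0% rather than 75.0% of Pyicoclip peaks were shared. With only peaks at or above the median score of their list, 3 members had peaks of 2 lists, with 30 peaks and 23 loci, and 10 members had any. Assignment by any overlap gave the same counts of members and peaks. On the strand of the gene alone, 11 members had a peak, since Eif2ak2 and 3 members whose direction was not used drop out. Leaving out Eif3a, an alternative chosen after seeing the data, left 45 peaks at 33 loci. No paired analysis was possible because there is 1 group and no value per library. Exons, the sequences of most peaks and mRNA levels were not used here.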
